A study of Mus musculus with 4 samples.

Results

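Immune cells of the involuting mouse mammary gland were compared with those of the gland in gestation, within a single hashed library of the series. UMIs (unique molecular identifiers) count captured RNA molecules. Of the library's cells 21177 held 500 or more UMIs, 300 or more genes and no more than 10% of UMIs from mitochondrial genes, and the members were 6134 of them. A cell was a member if tag HT8 (Involution) or tag HT5 (Gestation) led its tag counts, with at least 5 counts and at least 2 times those of the second tag. This gave 2541 Involution cells and 3593 Gestation cells among 17447 tagged cells. After removal of doublet calls, 2429 Involution cells (10422641 UMIs) and 3474 Gestation cells (12084263 UMIs) were analysed. Both samples were CD45+ cells of mammary glands minced, digested with collagenase type 2, freed of red cells and profiled by droplet sequencing of RNA 3' ends (10x v3.1). Each side is 1 pooled sample of mice at that stage, set apart only by its tag. The labels give no day of gestation or of involution, no strain for these tags and no number of animals per tag, and Balb/c and GF (germ-free) mice were separate samples. With 1 sample a side no test was possible, so shares carry exact binomial 95% intervals and UMI sums carry exact Poisson 95% intervals. Both cover counting error only and say nothing of the spread between animals. Levels in the 5 other tagged samples of the library (Germ-free, Lactation, Regression, Balb/c and GF) are given as a range where they place a value.

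During gestation the mammary epithelium branches and builds the alveoli that will make milk, while fat and stroma give way to it. Involution follows weaning: milk-producing cells die, neighbouring epithelium and macrophages engulf the debris and milk fat, proteases remodel the matrix, and fat cells refill. IgA-secreting plasma cells home to the lactating gland and supply the antibody of milk, and macrophages are known to accumulate as the gland regresses.

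The cells of the 2 samples can be told apart only by the barcode of the antibody bound to them. The barcodes, which are 15 bases long, are shown because every comparison rests on them, with capitals at the 12 positions at which they differ.
HT5 (Gestation): CTtTgTCTTTGTgAG
HT8 (Involution): TAtAgAACGCCAgGC
The Gestation tag gave fewer counts per cell than the Involution tag. The median analysed cell held 13 counts of its own tag in Gestation and 29 in Involution, against 2 counts of the second tag in both. In Gestation 260 cells were called with 5 or 6 counts, and 109 cells with 3 or 4 counts stayed uncalled. In Involution those numbers were 26 and 15. A stricter call, at least 10 counts and 5 times the second tag, kept 61.4% of the analysed Gestation cells and 86.3% of the Involution cells. Cells with few tag counts were not spread evenly: 24.4% of Gestation B-like cells and 27.4% of NK-like cells held 5 to 7 tag counts, against 6.63% of T-like cells. Several results are given under both calls. The median cell held 2810.5 UMIs and 1306 genes in Gestation and 3184 UMIs and 1438 genes in Involution. Ptprc, which encodes CD45, was detected in 95.9% of Gestation and 93.0% of Involution cells, and stromal or epithelial clusters made up 1.04% and 1.61%.

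The involution sample held fewer T cells and more macrophages, conventional dendritic cells and plasma cells than the gestation sample. T-like cells, named from Cd3e, Trac and other T cell receptor complex genes, were 47.8% of Gestation (46.1 to 49.5) and 28.7% of Involution (26.9 to 30.5). Macrophage-like cells, named from C1qa, Csf1r and Adgre1, were 3.11% of Gestation (2.56 to 3.74, 108 cells) and 13.3% of Involution (11.9 to 14.7, 322 cells). The T-like share of Gestation lay above the range of the 5 other samples, 13.8% to 46.8%, and its macrophage-like share below their range, 4.52% to 18.7%. Involution lay inside both ranges. The upper end of the T-like range, Lactation at 46.8%, fell within the Gestation interval of 46.1 to 49.5.

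**Figure D1:**
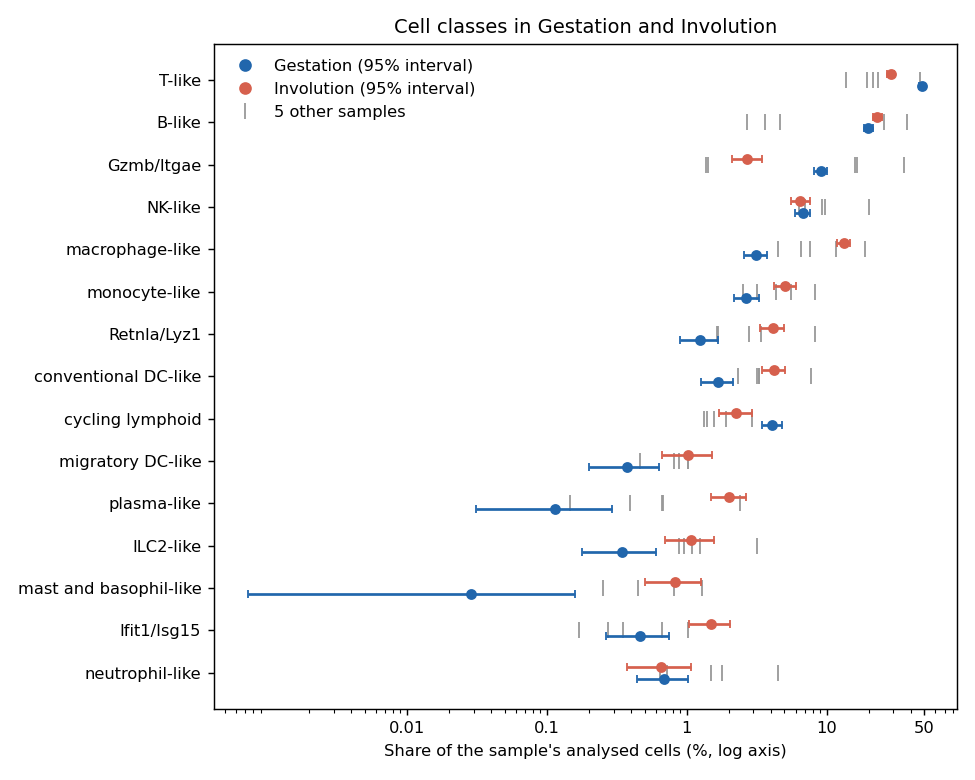
Share of analysed cells in each class (horizontal axis, percent, log scale) in Gestation and Involution, with exact binomial 95% intervals as bars and the 5 other samples of the library as grey marks. The T-like share was 47.8% in Gestation and 28.7% in Involution, and the macrophage-like share 3.11% and 13.3%, while the NK-like intervals overlap.

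Plasma-like cells, which secrete antibody, were far more frequent in Involution than in Gestation. Involution held 49 of them, 2.02% of its cells (1.496 to 2.66), and Gestation 4, or 0.115% (0.0314 to 0.294). IgA was the leading heavy chain in 44 of the 49 (89.8%, 77.8 to 96.6), Ighg2b in 3 and Ighm in 2. Igkc led the light chains in 47 and Iglc1 in 2. Of the 4 Gestation cells, 2 were led by Igha and 2 by Ighm. The Regression sample, a later stage, held 71 plasma-like cells of which 68 were led by Igha. IgA-led cells thus made up most plasma-like cells of Involution and of Regression.

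Other myeloid classes were also larger in Involution. Monocyte-like cells, named from Ly6c2 and Ccr2, were 2.68% of Gestation (2.17 to 3.27) and 5.06% of Involution (4.23 to 6.01). Conventional dendritic cells, which carry antigen to T cells, were 1.67% (1.27 to 2.15) and 4.199% (3.44 to 5.08). Both kinds contributed: the cross-presenting cDC1-like cells numbered 20 and 37, and the cDC2-like cells 38 and 65. Migratory dendritic cells, led by Ccr7 and Fscn1, were 0.374% (0.199 to 0.639) and 1.03% (0.667 to 1.52). An unnamed cluster led by Retnla and Lyz1 made up 1.24% (0.897 to 1.66) and 4.12% (3.36 to 4.99). Mast and basophil-like cells numbered 1 in Gestation and 20 in Involution (0.823%, 0.504 to 1.27). Neutrophil-like cells, at 0.691% (0.443 to 1.03) and 0.659% (0.377 to 1.07), had overlapping intervals, as did plasmacytoid dendritic cells at 0.288% (0.138 to 0.529) and 0.329% (0.142 to 0.648).

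Among the other lymphoid classes the pattern was mixed. B-like cells were 19.95% of Gestation (18.6 to 21.3) and 23.0% of Involution (21.4 to 24.7), with intervals that did not overlap. An unnamed cluster led by Gzmb, a cytotoxic granule protease, and Itgae, the integrin that binds epithelial cadherin, was 9.07% of Gestation (8.13 to 10.1) and 2.72% of Involution (2.11 to 3.44). Cycling lymphoid cells were 4.09% (3.45 to 4.80) and 2.26% (1.71 to 2.94). Type 2 innate lymphoid cells (ILC2-like) went the other way, with 0.345% (0.179 to 0.603) and 1.07% (0.700 to 1.56). NK-like cells, at 6.74% (5.93 to 7.62) and 6.505% (5.56 to 7.56), did not differ beyond counting error. A small cluster led by Ifit1 and Isg15, which are induced by interferon, held 16 Gestation cells (0.461%, 0.264 to 0.747) and 36 Involution cells (1.48%, 1.04 to 2.05).

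The tag call moved some of these shares. Under the stricter call T-like cells were 56.9% of Gestation and 31.3% of Involution, macrophage-like cells 2.11% and 10.6%, and plasma-like cells 0.0469% and 0.954%. B-like cells were then 13.6% and 24.6%, so the B-like share was 1.82 times higher in Involution under that call and 1.15 times higher under the call used here. The ratio of the NK-like shares was 0.966 here and 1.24 under the stricter call. Neutrophil markers also depended on the call: the 5 genes summed to 3.44 of every 10000 UMIs in Gestation (3.33 to 3.54) and 2.88 in Involution (2.77 to 2.98) here, and to 1.12 (1.05 to 1.197) and 2.77 (2.66 to 2.89) under the stricter call, so the direction reversed. Neutrophil-like cells then numbered 7 and 13.

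Marker genes summed over all analysed cells, with no clustering, gave the same picture for most classes. T cell markers made up 25.2 of every 10000 UMIs in Gestation and 13.5 in Involution. The 8 macrophage markers summed to 8.59 and 24.1, and the 5 cDC2 markers to 1.81 and 6.29. Plasma cell markers summed to 3.34 and 36.6, and mast and basophil markers to 0.399 and 8.10. B cell markers were close under the call used here, at 9.33 and 9.74, and fibroblast markers too, at 0.705 and 0.762. The B cell marker ratio was larger under the stricter tag call, as given at the end. After each cell was thinned to 1000 UMIs, which left out 51 Gestation and 61 Involution cells below that depth, Cd3e was seen in 23.9% of Gestation cells (22.5 to 25.4) and 14.3% of Involution cells (12.9 to 15.75). The unthinned shares were 47.4% and 29.9%. Its share in B-like cells, which should lack it, was 0.438% and 1.82% at median depths of 2040 and 2004 UMIs. The thinned share of C1qa was 6.72% (5.90 to 7.61) and 17.7% (16.2 to 19.3), against 3.70% and 3.05% in T-like cells. Unthinned, C1qa was seen in 13.2% and 24.3% of cells. The thinned share of Jchain, at 5.87% and 5.997%, was close to that of T-like cells in Gestation, 5.95%, and is read as background there. In Involution the share in T-like cells was 3.34% (2.13 to 4.97), below that of all cells (5.07 to 7.03).

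Within the T-like cells the makeup differed as well. A cluster led by Cxcr3 and Cxcr6, receptors that guide activated T cells into tissue, was 39.8% of Gestation T-like cells (37.5 to 42.2) and 28.3% of Involution T-like cells (24.95 to 31.8). CD8 T-like cells, the cytotoxic lineage, were 24.3% (22.2 to 26.4) and 33.0% (29.5 to 36.6). Gamma-delta T-like cells, which carry the second kind of T cell receptor and in tissues often make interleukin 17, were 3.61% (2.77 to 4.63) and 11.8% (9.47 to 14.4). The markers of that cluster differed too: its gamma-delta markers summed to 9.43 per 10000 UMIs in Gestation (8.14 to 10.9) and 16.4 in Involution (14.9 to 17.9), and its CD4 T markers to 8.83 (7.58 to 10.2) and 6.53 (5.64 to 7.51). The latter were above the 3.42 and 3.196 of the Cd4 and Lef1 cluster, and Icos, a costimulatory receptor, gave 144 of their 177 UMIs in Gestation and 160 of 194 in Involution. A cluster led by Cd4 and Lef1, a transcription factor of naive T cells, was 26.0% (23.9 to 28.1) and 21.4% (18.4 to 24.6). Regulatory T-like cells, named from Foxp3, were 6.33% (5.20 to 7.61) and 5.60% (4.01 to 7.57), intervals that overlap. The ratio of Cd8b1 to Cd4 UMIs over all T-like cells was 3.68 in Gestation and 5.21 in Involution, against 2.12 to 4.43 in the other samples.

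The summed level of interferon-stimulated genes was higher in Involution, with intervals that did not overlap, in all of the 12 classes that share no cell except the Cxcr3 and Cxcr6 cluster. The ratio was largest in B-like cells, CD8 T-like cells and the Cd4 and Lef1 cluster. They act downstream of type I interferon: Isg15 is a ubiquitin-like modifier, Irf7 a transcription factor that amplifies interferon production, Rsad2 (viperin) and Bst2 (tetherin) block viral replication and release, and Oasl1 and Oasl2 belong to the oligoadenylate synthetase family. The list of 20 genes made up 15.2 of every 10000 UMIs of Gestation B-like cells (14.6 to 15.9) and 28.8 of Involution B-like cells (27.9 to 29.8). In CD8 T-like cells it made up 12.2 (11.6 to 12.8) and 22.5 (21.5 to 23.6), and in the Cd4 and Lef1 cluster 13.0 (12.4 to 13.7) and 25.5 (24.0 to 27.0). Monocyte-like cells held 44.4 (42.4 to 46.4) and 67.7 (65.6 to 69.8). In each of these 4 classes Involution lay above every other sample of the library, whose highest values were 17.3 in B-like, 18.9 in CD8 T-like, 19.85 in Cd4 and Lef1 and 56.7 in monocyte-like cells.

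**Figure D2:**
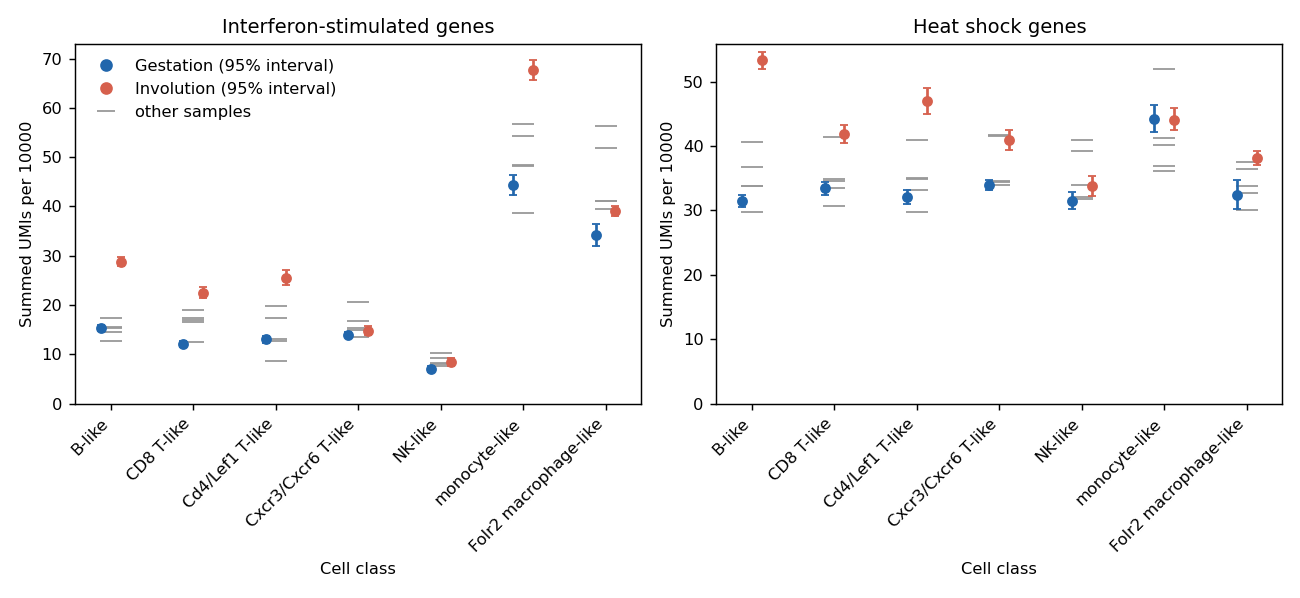
Summed level of the interferon-stimulated genes and of the heat shock genes (vertical axis, UMIs per 10000 UMIs of the class) by cell class in Gestation and Involution, with exact Poisson 95% intervals, and in the 5 other samples as grey marks. Interferon-stimulated genes in B-like cells were at 15.2 in Gestation and 28.8 in Involution, above the other samples, while those of the Cxcr3 and Cxcr6 cluster were at 13.9 and 14.8, within them.

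Gamma-delta T-like cells held 7.84 (6.66 to 9.16) in Gestation and 12.98 (11.7 to 14.4) in Involution, and the Gzmb and Itgae cluster 5.94 (5.54 to 6.36) and 7.88 (6.94 to 8.92). Among myeloid classes the Mmp12 cluster held 17.2 (15.99 to 18.5) and 25.01 (23.6 to 26.5), conventional dendritic cells 14.3 (13.1 to 15.6) and 19.9 (18.9 to 20.9), and the Retnla and Lyz1 cluster 19.9 (18.1 to 21.8) and 26.8 (25.6 to 28.01). The differences were smaller elsewhere: NK-like cells held 7.003 (6.42 to 7.62) and 8.42 (7.68 to 9.21), and Folr2 macrophage-like cells 34.1 (31.9 to 36.5) and 39.1 (38.0 to 40.2). In the Cxcr3 and Cxcr6 cluster the intervals overlapped, at 13.9 (13.4 to 14.4) and 14.8 (13.9 to 15.8). In the Mmp12 cluster Involution was above the other samples. Regression was close in gamma-delta T-like cells (12.7). Regression passed Involution in NK-like cells (10.3) and the Gzmb and Itgae cluster (10.7). Balb/c did in conventional dendritic cells (33.3) and Lactation in the Retnla and Lyz1 cluster (29.55). In the Folr2 cluster the others were at 39.6 to 56.4, above Involution. Gestation was lowest in NK-like cells and the Gzmb and Itgae and Folr2 clusters. In B-like cells the median cell held 12.4 list UMIs per 10000 in Gestation and 23.0 in Involution. The tenth of B-like cells with the most list UMIs held 32.7% and 30.5% of them. The higher sum was thus not carried by a few cells. The median CD8 T-like cell held 10.1 and 18.9.

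Single genes are counted as differing when the summed level was at least 2 times higher or lower, among genes with at least 50 UMIs in both samples together. Levels are UMIs per 1000000 UMIs of the class, and log2 ratios have 0.5 UMI added to each sum. In B-like cells 0.527% of 6256 compared genes were past that fold upward and 0.336% downward (0.863% in either direction). Of the 9 interferon-stimulated genes compared there, 4 were past it upward, none downward, all 9 were above a ratio of 1, and their median log2 ratio was 0.94 against 0.01 over all genes. Rtp4, a chaperone for receptors, was at 6.61 (3.17 to 12.2) in Gestation and 34.7 (24.97 to 46.8) in Involution. Irf7 was at 20.5 (13.9 to 29.1) and 58.6 (45.7 to 73.9). Both Involution values were above all 5 other samples. Ifi27l2a, which has close relatives in the mouse genome to which its reads could be split, was at 589 (551 to 629) and 1298 (1234 to 1363).

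Interferon-induced genes outside the list were also higher in B-like cells. Oasl1 was at 11.9 (7.06 to 18.8) and 49.5 (37.8 to 63.7), and Slfn5, a Schlafen family gene that interferon induces, at 69.5 (56.8 to 84.1) and 229 (202 to 257). Rnf213, a large ubiquitin ligase, was at 91.3 (76.7 to 108) and 252 (224 to 281.5). The 10 genes with the largest ratio under the naming rule were Rtp4, Hspa1b, Oasl1, Hspa1a, Slfn5, Oasl2, Ifi206, Gla, Irf7 and Rnf213. In B-like cells of the 5 other samples Oasl1, Slfn5 and Rnf213 were all below the Involution level.

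In CD8 T-like cells 0.368% of 5163 compared genes were past the fold upward and 0.407% downward, and 4 of 9 list genes were past it upward, with a median log2 ratio of 0.92. Isg15 was at 14.4 (8.67 to 22.5) and 54.8 (40.1 to 73.1). The guanosine triphosphatases Iigp1 and Igtp, which are induced above all by interferon gamma, were at 15.2 (9.25 to 23.4) and 47.6 (34.0 to 64.9), and at 45.5 (34.7 to 58.5) and 118 (95.8 to 143.5). In monocyte-like cells 2.1% of 3051 compared genes were past the fold upward and 1.7% downward (3.8% in either direction). Of 16 list genes compared, 5 were past it upward and 1, Ly6a, downward, with a median log2 ratio of 0.81 against -0.04 over all genes. Rsad2 was at 79.1 (54.4 to 111) in Gestation, where 1 cell held 63.6% of its UMIs, and 266 (226 to 310.3) in Involution. Its log2 ratio was 0.99 under the stricter tag call, just short of the fold. Isg15 was at 120 (88.9 to 158) and 272 (232 to 317.5) there.

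Promoters of 2 of these genes are shown because a promoter sequence is where interferon-activated factors bind. They are RefSeq sequences on GRCm38.p6, the minus strand read 5′ to 3′, from 250 bases before the start of the gene to 50 after it. Capitals mark matches of GAAA, any 2 bases and GAAA, or of the reverse complement, TTTC, any 2 bases and TTTC, on the strand shown. This is the core of the interferon-stimulated response element, with overlapping matches allowed.
Isg15, chr4:156200769-156201068: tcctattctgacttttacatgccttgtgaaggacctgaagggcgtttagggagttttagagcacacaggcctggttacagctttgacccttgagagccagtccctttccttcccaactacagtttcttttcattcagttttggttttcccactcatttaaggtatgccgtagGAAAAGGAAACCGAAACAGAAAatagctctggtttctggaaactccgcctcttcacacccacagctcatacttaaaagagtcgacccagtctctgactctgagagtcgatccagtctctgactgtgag
Rsad2, chr12:26456403-26456702: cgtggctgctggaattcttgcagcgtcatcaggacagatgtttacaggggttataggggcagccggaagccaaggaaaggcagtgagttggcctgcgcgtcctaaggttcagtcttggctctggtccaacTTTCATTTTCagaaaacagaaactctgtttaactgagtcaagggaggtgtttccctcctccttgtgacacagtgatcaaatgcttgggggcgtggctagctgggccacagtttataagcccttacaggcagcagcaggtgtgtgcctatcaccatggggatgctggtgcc
The Isg15 promoter holds 3 overlapping matches and that of Rsad2 holds 1. Of the 20 listed genes 12 are in the promoter table, and 8 of them have a match in at least 1 promoter, as do 3.99% of the 27025 genes in the table and 3.44% of the 32851 promoters. A match describes the letters of the window only.

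Heat shock genes, whose chaperones refold damaged proteins, were also higher in several lymphoid and myeloid classes of Involution. The 11 genes made up 31.5 of every 10000 UMIs in Gestation B-like cells (30.6 to 32.4) and 53.3 in Involution (52.0 to 54.6), where the highest other sample held 40.7. In the Cd4 and Lef1 cluster they made up 32.1 (31.1 to 33.1) and 46.95 (44.95 to 49.0). They were higher in CD8 T-like cells (33.4 and 41.8), the Cxcr3 and Cxcr6 cluster (33.9 and 40.9) and gamma-delta T-like cells (30.4 and 35.6). Among myeloid classes the Folr2 cluster held 32.45 and 38.1, and the Retnla and Lyz1 cluster 36.85 and 46.4. Germ-free passed Involution in the Cxcr3 and Cxcr6 cluster (41.8), gamma-delta T-like cells (38.8) and the Retnla and Lyz1 cluster (49.3). Lactation was at 41.6 in the Cxcr3 and Cxcr6 cluster. The highest other sample was lower in the Cd4 and Lef1 cluster (40.9). It was just lower in CD8 T-like cells (41.4) and the Folr2 cluster (37.5). Intervals of Gestation and Involution overlapped in NK-like cells, at 31.5 and 33.8, and monocyte-like cells, at 44.2 and 44.1. They also overlapped in the Gzmb and Itgae cluster (29.3 and 30.35), the Mmp12 cluster (36.8 and 39.3) and conventional dendritic cells (47.6 and 44.4). Of the 10 genes compared in B-like cells, 2 were past the fold upward, Hspa1b at 139 and 568 and Hspa1a at 72.8 and 295. These near-identical copies can share reads. The median log2 ratio of the 10 was 0.75. In the Cd4 and Lef1 cluster, where 0.519% of 4236 compared genes were past the fold upward and 1.02% downward, 3 of 10 were past it upward and Hsph1, a cochaperone, was at 43.4 (32.2 to 57.2) and 156 (122 to 198).

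In T-like cells as a whole, 0.582% of 9106 compared genes were past the fold upward in Involution and 0.626% downward (1.21% in either direction). Genes of the interleukin 17 program were higher: 8 of the 9 compared were past the fold, with a median log2 ratio of 2.09 against -0.01 over all genes. Il23r, the receptor for the cytokine that sustains interleukin 17 producers, was at 3.75 (2.26 to 5.85) in Gestation and 18.1 (13.1 to 24.4) in Involution. Cd163l1, a scavenger receptor of gamma-delta T cells, was at 21.7 (17.8 to 26.1) and 99.6 (87.3 to 113). Blk, a kinase used in gamma-delta T cell development, was at 10.5 (7.83 to 13.7) and 44.7 (36.6 to 54.1). Il17a was at 3.75 and 20.3, although 1 cell held 37.5% of its Involution UMIs. Within the gamma-delta T-like cluster, where 1.62% of 1663 compared genes were past the fold upward and 0.601% downward, none of the 8 list genes compared was past it and their median log2 ratio was 0.52. The cluster's larger share in Involution stood beside the difference seen over all T-like cells.

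Among genes lower in T-like cells of Involution were Gzmk, Gzmb and Entpd1. As lists, 2 of 16 cytotoxic genes compared and 1 of 10 residency genes were past the fold downward and none upward, with median log2 ratios of 0.03 and -0.01. Gzmk, a granzyme of memory T cells, had 134 UMIs in Gestation T-like cells (26.4 per 1000000, 22.1 to 31.3) and 6 in Involution (2.53, 0.929 to 5.51), below every other sample of the library. Gzmb was at 81.4 (73.8 to 89.7) and 21.5 (16.02 to 28.3), and Entpd1 (CD39), an enzyme that degrades extracellular ATP, at 22.3 (18.4 to 26.8) and 7.59 (from 4.50 to 12). For Gzmb and Entpd1 too, Involution was below the range of the other samples.

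Gzmk and Gzmb were also lower within the Cxcr3 and Cxcr6 cluster. There 0.781% of 6405 compared genes were past the fold upward and 1.37% downward. Gzmk was at 62.1 (51.9 to 73.7) in Gestation and 9.05 (3.32 to 19.7) in Involution, and Gzmb at 170.5 (153 to 189) and 48.3 (33.0 to 68.1). Itgae was at 128 (113 to 144) and 34.7 (22.0 to 52.0). Ahr, the aryl hydrocarbon receptor, which helps T cells persist in epithelia, was at 41.1 (32.9 to 50.7) and 18.1 (9.35 to 31.6), and Cx3cr1, a chemokine receptor of effector cells, at 30.1 (23.1 to 38.5) and 6.03 (1.64 to 15.4). Of 9 residency genes compared, 2 were past the fold downward, with a median log2 ratio of -0.46. Marker sums of the cluster differed as well. Per 10000 UMIs its CD8 T markers summed to 6.97 in Gestation and 4.55 in Involution, and its NK markers to 3.515 and 5.43. Regulatory T markers summed to 2.59 and 3.725, with 1 of 5 higher in Involution, and gamma-delta markers to 0.893 and 1.598. T cell markers were at 41.1 and 41.8, intervals that overlap. The part of cluster makeup in the gene differences was not tested.

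Most naive and cytotoxic genes of that cluster were not past the fold. Of 9 naive and central T cell genes compared, 1 was past the fold upward and none downward, and their median log2 ratio was 0.68 against 0.01 over all genes. Of 16 cytotoxic genes 2 were past it downward. The cytotoxic list had a positive median log2 ratio, 0.49, and a lower sum, 91.7 in Gestation and 76.8 in Involution per 10000 UMIs. Ccl5, a chemokine that attracts T cells and the most abundant member, was at 6289 (6182 to 6397) and 4441 (4282 to 4604). Klra7, an Ly49 receptor gene with near-identical relatives, was at 48.7 (39.7 to 59.1) and 133 (106 to 163.5).

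**Figure D3:**
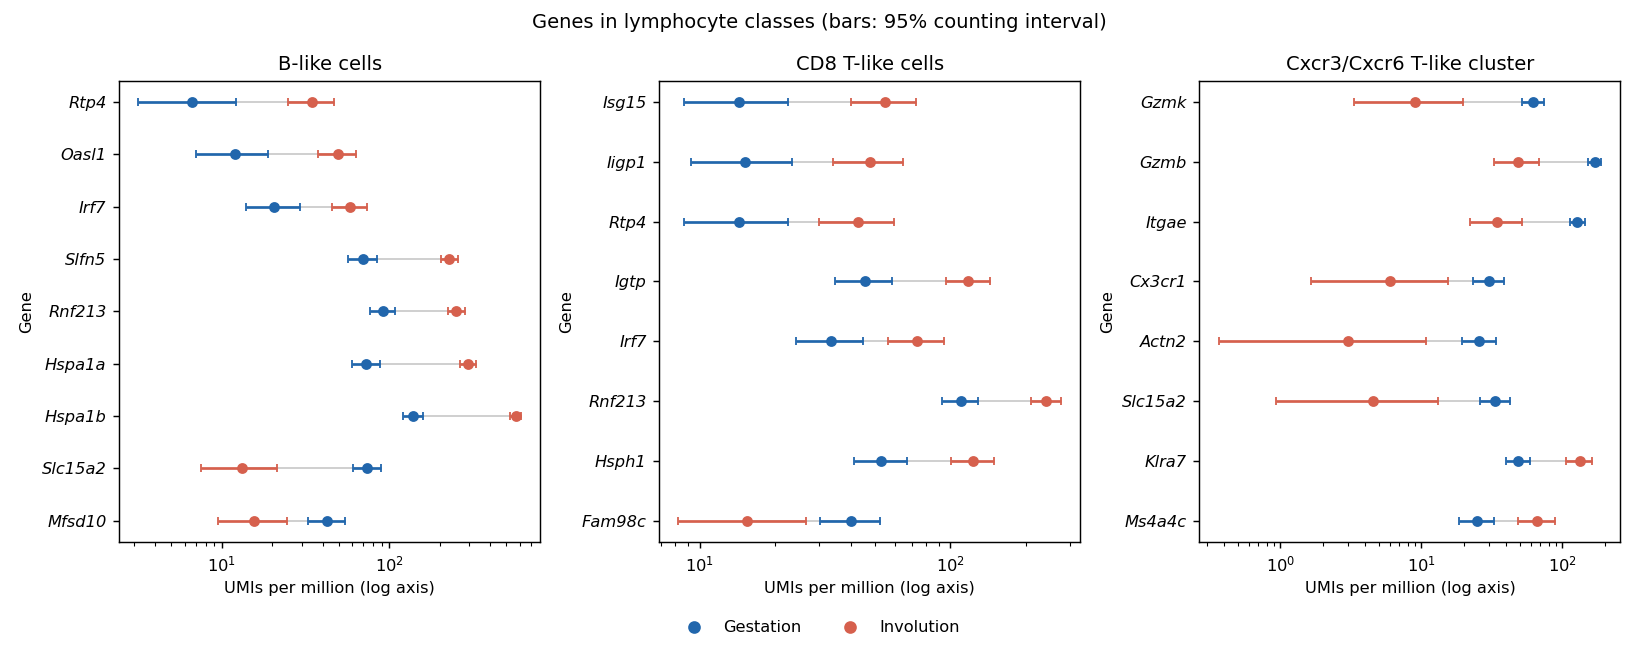
Levels of named genes in lymphoid classes (horizontal axis, UMIs per 1000000 UMIs of the class, log scale) in Gestation and Involution, with exact Poisson 95% intervals. In the Cxcr3 and Cxcr6 cluster Gzmb was at 170.5 in Gestation and 48.3 in Involution, and in B-like cells Slfn5 was at 69.5 and 229.

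Slc15a2, a transporter of short peptides, was lower in Involution in several lymphoid classes. It was at 74.1 (61.0 to 89.1) in Gestation B-like cells and 13.2 (7.54 to 21.4) in Involution, and at 30.95 (26.3 to 36.2) and 5.06 (2.62 to 8.84) in T-like cells. Over all classes it was at 38.5 in Gestation and 10.45 in Involution, and the other samples ranged from 3.73 to 38.4. Gestation lay just above that range, next to Regression at 38.4, and Involution lay inside it. Fbxl20, a subunit of a ubiquitin ligase, had 65 UMIs in Gestation and 2 in Involution in the Cd4 and Lef1 cluster, a ratio of Involution to Gestation of 0.0804 (0.00954 to 0.302). Cirbp, an RNA-binding protein induced by cold, was at 113 (94.2 to 134) and 40.8 (24.2 to 64.5) there.

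Hes1 and Cish were lower and Cd55 was higher in NK-like cells of Involution. In NK-like cells 0.336% of 4163 compared genes were past the fold upward and 0.36% downward. Hes1, a Notch target, was at 100 (78.8 to 125) in Gestation and 29.99 (17.5 to 48.0) in Involution, and Cish, which is induced by Stat5 and restrains cytokine signalling, at 105 (83.5 to 131) and 44.1 (28.55 to 65.1). Cd55, which protects cells from complement, was at 26.3 (16.1 to 40.7) and 75.9 (54.9 to 102). In the cluster led by Gzmb and Itgae 0.878% of 4782 compared genes were past the fold upward and 1.25% downward. Ramp1, part of the receptor for the neuropeptide CGRP, had 53 UMIs in Gestation and 1 in Involution, a ratio of 0.0806 (0.00200 to 0.469), but its direction turned at a clustering resolution of 0.5 (log2 ratio 0.22). MHC class II genes were past the fold upward in 4 of 6 compared there, but 1 cell held 27.2% of their UMIs in Involution, and without the tenth of cells with the most the sums were 6.82 and 6.65 per 10000.

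Summed over the macrophage-like class, Involution had more transcripts of alternative activation and fewer of inflammation and matrix breakdown. The class joins a Folr2 and an Mmp12 cluster whose shares differed between the samples, as given below. In macrophage-like cells 3.26% of 6108 compared genes were past the fold upward in Involution (199 genes) and 2.28% downward (139), or 5.53% in either direction. Of 12 genes of alternatively activated macrophages compared, 8 were past it upward and none downward, with a median log2 ratio of 1.13 against 0.05 over all genes. Mrc1, the mannose receptor, was at 807 (740 to 877.5) in Gestation and 1849 (1786 to 1915) in Involution. Folr2, a folate receptor of resident macrophages, was at 185 (154 to 220.4) and 576 (541 to 613). Of 8 inflammatory cytokine genes compared, 4 were past the fold downward and none upward, with a median log2 ratio of -1.21. Il1b, a secreted cytokine of activated macrophages, was at 919.9 (849 to 995) and 196 (175.5 to 218). Of 10 matrix remodelling genes 5 were past the fold downward: Mmp12, Mmp13 and Mmp14, which degrade matrix, and Plau and Plaur, which generate plasmin at the cell surface. Mmp12 was at 399.6 (353 to 450.4) and 119 (103 to 136).

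The makeup of the class differed beside these genes. A Folr2 cluster held 59 of the 108 macrophage-like cells of Gestation (54.6%, 44.8 to 64.2) and 260 of the 322 of Involution (80.75%, 76.0 to 84.9). An Mmp12 cluster held the other 49 and 62. The clusters were therefore compared separately. Within the Folr2 cluster none of the 12 alternatively activated genes was past the fold, with a median log2 ratio of 0.15 and sums of 99.9 and 112 per 10000 UMIs. There 2.64% of 4507 compared genes were past the fold upward and 0.932% downward.

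Timd4, C2, Ccl8 and Nr1d1 were higher within the Folr2 cluster in Involution. Timd4, a receptor for phosphatidylserine on dying cells, had 3 UMIs in Gestation (12.1 per 1000000, 2.50 to 35.4) and 91 in Involution (71.9, 57.9 to 88.3), a ratio of 5.94 (1.97 to 29.3). C2, a complement component, had 2 and 58, a ratio of 5.68 (1.503 to 48.0). Ccl8, a chemokine of tissue macrophages, was at 629.5 (535 to 736) and 1784 (1711 to 1859). The other samples were between 1148 and 1972, so Gestation was low and Involution was among them. Nr1d1, which encodes the clock repressor Rev-erb alpha, had 2 and 51 UMIs, a ratio of 4.99 (1.31 to 42.3).

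Genes lower in that cluster in Involution included the receptors Cx3cr1, Ccr1 and Adgre4. Cx3cr1, the fractalkine receptor, was at 476 (394 to 570.3) in Gestation and 168 (146 to 192) in Involution. Ccr1, a receptor for inflammatory chemokines, was at 149 (105 to 206) and 63.2 (50.1 to 78.7), and Adgre4, an adhesion receptor of monocytes, at 109 (71.8 to 158.5) and 43.5 (32.7 to 56.6). Gestation was above the other samples for all 3. The chemokine Cxcl9 was at 399.5 and 41.9, but 1 cell held all of its 99 Gestation UMIs. The 5 neutrophil markers were all detected in the Gestation cells of this cluster and summed to 3.55 per 10000 UMIs, against 0.490 in Involution, with 1 at 0. Milk protein transcripts summed to 17.6 and 7.65, with 33.7% of the former in 1 cell, and the part of such transcripts in the differences was not tested.

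Il1b, Cxcl2, Ccl4 and Socs3 were lower in the Mmp12 cluster of Involution. There 1.58% of 2594 compared genes were past the fold upward and 1.73% downward. Il1b was at 1374 in Gestation and 569 (502 to 642) in Involution, Cxcl2, which attracts neutrophils, at 1653 and 459 (400 to 525), and Ccl4, a chemokine for T cells and monocytes, at 1783 (1658 to 1915) and 749 (673 to 832). The log2 ratio of Ccl4 was -0.68 under the stricter tag call, short of the fold. Socs3, a feedback inhibitor induced by Stat3, was at 187 (148 to 233) and 49.4 (31.3 to 74.1). For Il1b, Cxcl2 and Ccl4 the Involution value was below all other samples. Of 6 inflammatory cytokine genes compared 2 were past the fold downward, with a median log2 ratio of -0.68.

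Ctsd, Lpl and Mmp2 were higher in the Mmp12 cluster of Involution. Ctsd, a lysosomal protease, was at 468 (405 to 538) and 1251 (1152 to 1357), and the other samples reached 639. Lpl, which frees fatty acids from triglyceride, was at 111 (81.7 to 148) and 285.5 (239 to 338). Of 12 lipid-associated macrophage genes, these 2 were past the fold, and the median log2 ratio was 0.53. Mmp2, a gelatinase, was at 68.6 (45.9 to 98.5) and 182.5 (146 to 226), while Mmp13 was at 383 (326 to 447) and 135 (104 to 173). Haemoglobin transcripts summed to 0.355 per 10000 UMIs in Gestation and 87.0 in Involution, where 1 cell held 75.4% to 82.0% of the UMIs of each of the 4 genes.

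**Figure D4:**
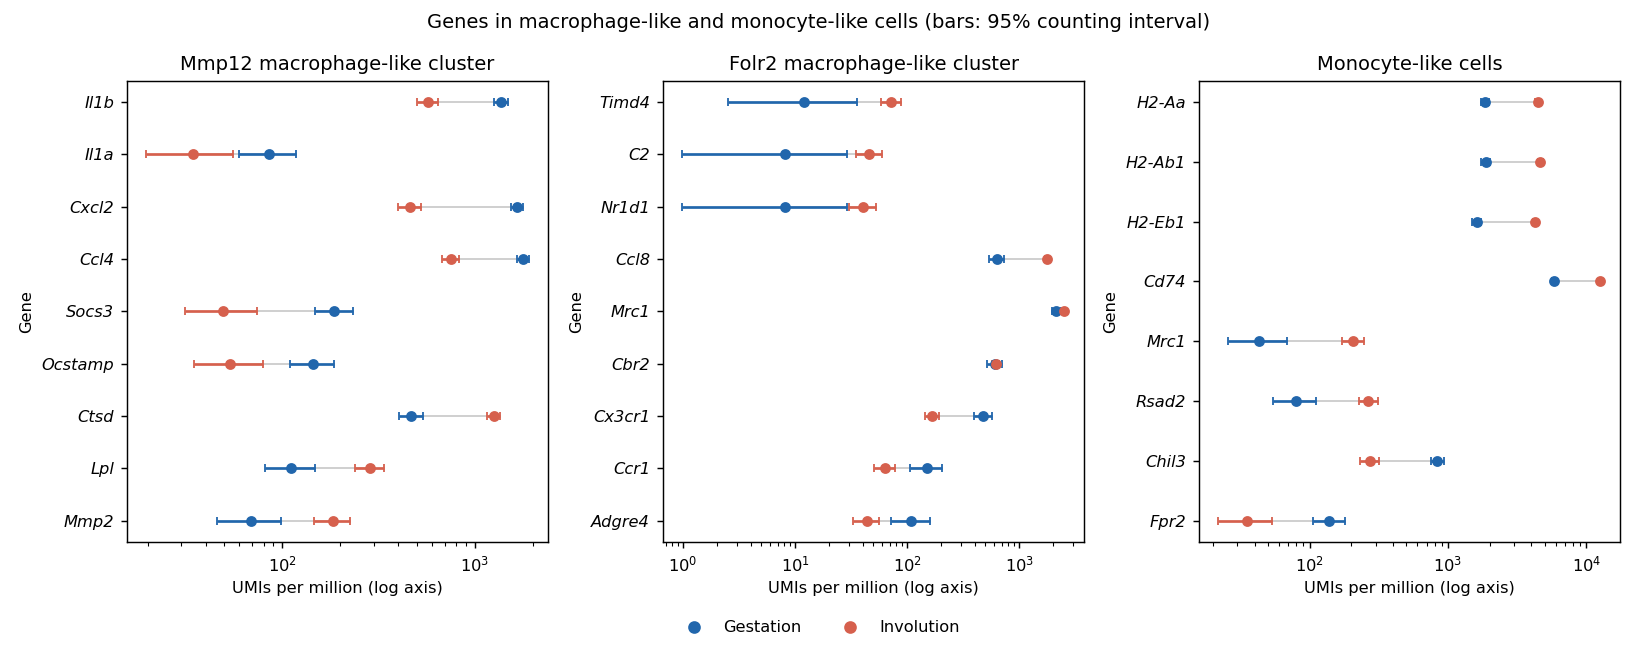
Levels of named genes in myeloid classes (horizontal axis, UMIs per 1000000 UMIs of the class, log scale) in Gestation and Involution, with exact Poisson 95% intervals. In the Mmp12 cluster Il1b was at 1374 in Gestation and 569 in Involution and Ctsd at 468 and 1251, and in monocyte-like cells H2-Ab1 was at 1871 and 4666.

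Monocytes of Involution carried more MHC class II transcripts, the genes that present antigen to CD4 T cells. The list summed to 131 of every 10000 UMIs in Gestation (128 to 135) and 286 in Involution (282 to 290.4), above the other samples, of which Regression was nearest at 255. Of 10 genes compared, 6 were past the fold upward and none downward, with a median log2 ratio of 1.18. H2-Ab1 was at 1871 (1742 to 2007) and 4666 (4495 to 4843), and Ciita, the master activator of the class II genes, at 47.9 (29.3 to 74.0) and 145 (116 to 179). The median cell held 34.4 and 88.1 list UMIs per 10000 and the upper quartile 97.5 and 455.5, and without the tenth of cells with the most the sums were 68.3 and 226.

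Markers of neighbouring types were measured in the same monocytes. The 5 cDC2 markers summed to 6.73 and 8.37 per 10000 UMIs, with 4 of 5 higher in Involution, and the 8 macrophage markers to 15.5 and 17.04. B cell markers were at 0.982 and 1.05, intervals that overlap. Mrc1 was also higher in Involution, at 43.1 (25.6 to 68.2) and 207 (172 to 247). The log2 ratio of Mrc1 was 0.75 when the cells were clustered at a resolution of 0.5 or 2.0, short of the fold. Chil3, a chitinase-like protein of immature monocytes, was at 838 (753 to 931) and 272 (232 to 317.5), and Fpr2, a receptor for formylated peptides, at 139 (105.5 to 179.6) and 35.1 (21.7 to 53.6). Haemoglobin transcripts summed to 68.6 per 10000 UMIs in Gestation monocytes and 0.217 in Involution. In Gestation 1 cell held at least 98.9% of the UMIs of each of the 4 genes.

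Conventional dendritic cells and the Retnla and Lyz1 cluster differed less. In conventional dendritic cells 0.805% of 3230 compared genes were past the fold upward and 0.898% downward. Of 14 cell cycle genes compared 2 were past the fold downward, with a median log2 ratio of -0.57, and Cdk4, a kinase that drives entry into the cycle, was at 101 (71.6 to 139) and 45.3 (31.6 to 63.0). Nkg7, a granule protein of cytotoxic lymphocytes, had 3 UMIs in Gestation and 51 in Involution, a ratio of 8.27 (2.67 to 41.4), while the 7 NK markers summed to 1.36 and 1.42 per 10000 UMIs. Its log2 ratio was 0.98 under the stricter tag call and 0.99 without doublet removal. In the Retnla and Lyz1 cluster 1.01% of 2564 compared genes were past the fold upward and 0.546% downward. Blvrb, which acts in haem breakdown, was at 17.7 (4.83 to 45.4) and 72.4 (53.8 to 95.5), and Ccnd1, a cyclin of the G1 phase, at 53.2 (27.5 to 93.0) and 127.5 (102 to 157). Haemoglobin transcripts of that cluster summed to 0.310 per 10000 UMIs in Gestation and 43.03 in Involution, where 1 cell held at least 99.2% of the UMIs of each of the 4 genes.

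**Figure D5:**
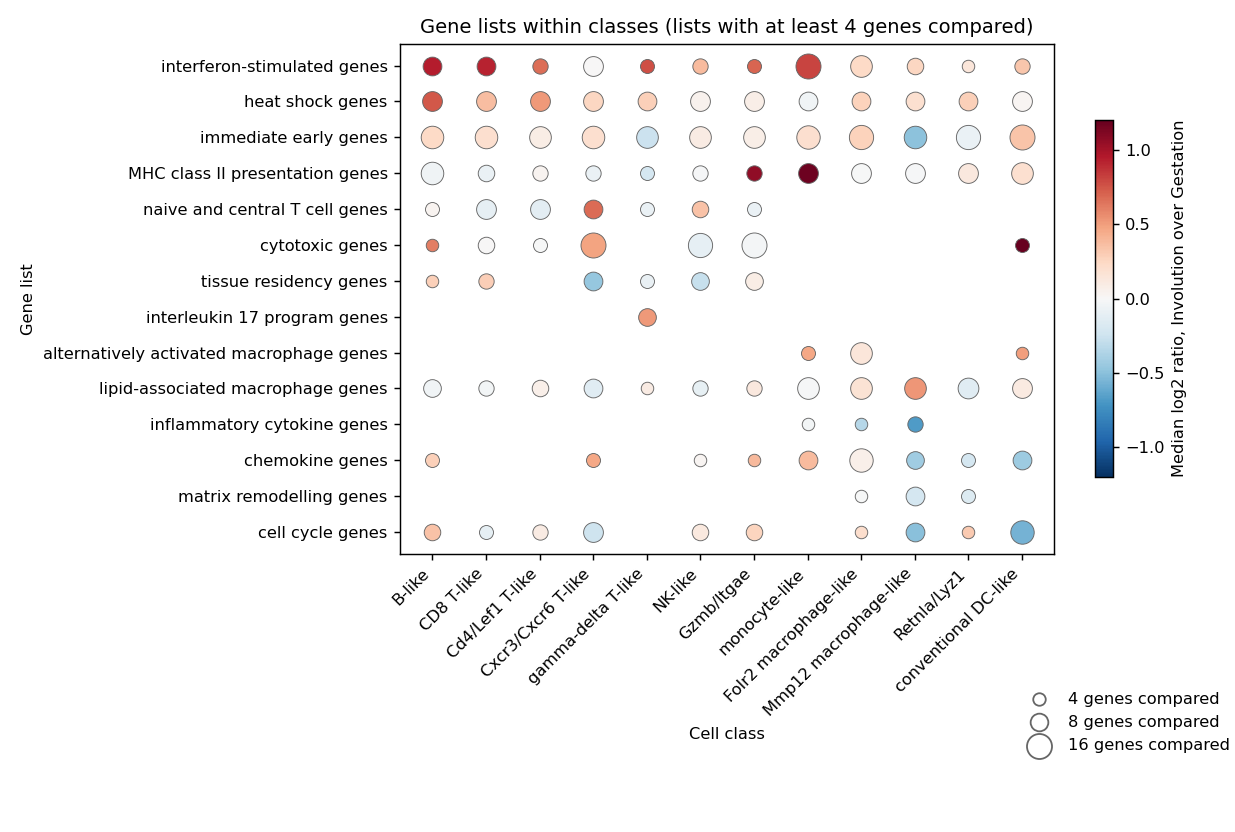
Median log2 ratio of Involution to Gestation (colour) for each gene list (vertical axis) in each cell class (horizontal axis), with dot size for the number of genes compared and no dot under 4 genes. Interferon-stimulated genes had medians of 0.94 in B-like and 0.92 in CD8 T-like cells and 0.01 in the Cxcr3 and Cxcr6 cluster, and MHC class II genes 1.18 in monocyte-like cells.

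Few genes differed across lineages. Over 12 classes that share no cell, 5250 genes were compared in at least 4 classes. Of these 5 genes, or 0.0952%, were at least 2 times higher in 3 or more classes: Ifi27l2a, Rnf213, Ccl5, Gzma and Hba-a1. A single gene, 1700017B05Rik, or 0.019%, was lower by that rule. They were named after their values were seen. Ifi27l2a had a ratio above 1 in 12 of 12 classes and was at 541 over all classes in Gestation and 1282 in Involution. The other samples were between 684 and 1599, so Gestation lay below all of them and Involution among them. Ccl5, Gzma and Hba-a1 were each also at least 2 times lower in other classes. Nr1d1 over all classes was at 4.06 (2.91 to 5.50) in Gestation, 9.45 in Regression and 12.9 (10.6 to 15.6) in Involution, with the others at 3.93 to 5.67. Within single classes it could be compared only in the Folr2 cluster, with a log2 ratio of 2.01, and in gamma-delta T-like cells, with 0.449. The Folr2 cluster held 59 cells in Gestation and 260 in Involution. The part of class makeup in the Nr1d1 level over all classes was not tested. Cirbp was at 90.5 in Gestation and 50.9 in Involution.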

How the data were processed

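Cells of a mouse mammary CD45+ library were read from the UMI count matrix and the tag count matrix that the authors deposited, with 55487 gene entries given by symbol. Per the submitters' processing notes, Cell Ranger 6.1.0 and mm10 were used, with roles not given there. Every deposited barcode held at least 500 UMIs.

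The library was filtered at 500 UMIs, 300 genes and 10% mitochondrial UMIs, and tags were called at 5 counts and 2 times the second tag. Doublets were called with Scrublet in scanpy 1.11.5 (expected rate 0.08), and clusters with a doublet share over 0.5 were removed. Cells were clustered on 2000 variable genes, 30 components and 15 neighbours with leidenalg 0.10.2, and named from marker genes. Cluster descriptions by leading genes were set after the data were seen. UMIs were summed per sample in classes of at least 40 cells a sample. Log2 ratios used 0.5 added UMI. Intervals used scipy 1.17.1. The scripts were tested on simulated data. Alternatives used edgeR 4.0.16 (TMM scaling) and Seurat 5.3.0 (HTODemux).

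Named genes were, per class and direction, up to 10 past 2 times with at least 50 UMIs in both samples together, at least 10 cells with a UMI in the higher sample and at most 20% of its UMIs in 1 cell, without markers, haemoglobin, milk or variable segment genes, plus list members. Other list members, Nr1d1 and the other clock genes, Cirbp and the genes shared by several classes were named after their values were seen. The members and lists were chosen with earlier results of these data known. With 1 sample a side no test was run. For marker shares each cell was thinned to 1000 UMIs. A few genes are not reported here.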

Additional observations from a re-analysis of the deposited data

Results flagged for a closer look

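Counts were present for tags that the deposited sheet gives no sample. HT1 held 973 counts, HT11 74, HT13 19, HT7 14, HT3 5 and HT15 5, against 84344 for HT5 (Gestation) and 125956 for HT8 (Involution). None of them led a kept cell with 5 or more counts.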

How the results depend on the processing

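Of 84 recomputed ratios of class shares 79 stayed within the range that the counting intervals of both samples allowed, 2 moved and 3 reversed. Of 8 recomputed marker sum ratios 7 moved, and of 146 recomputed counts of genes past 2 times 41 moved. Of 2884 recomputed gene ratios 2854 were scored as keeping direction and size, 27 as moved and 3 as reversed. The scores of share and gene ratios are lenient, because they allowed for the counting error of both samples, which is wide for genes with few UMIs. A changed gene minimum cannot alter a gene's own ratio, so any recomputation of that kind was bound to count as unchanged. The T-like share ratio of Involution to Gestation was 0.534 with cells gated by markers, and the B-like ratio 1.82 with the stricter tag call. The NK-like ratio reversed to 1.24 with the stricter tag call, 1.13 at resolution 0.5 and 1.04 with the looser tag call. Marker sum ratios with the stricter tag call were 0.503 for T, 1.57 for B and 3.19 for macrophages. With the mean of cell shares they were 0.608 for T, 1.2 for B, 3.31 for macrophages and 6.46 for plasma cells. Counts of genes past 2 times depended on the gene minimum: with 20 and with 200 UMIs they were 263 and 7 in B-like cells (54 at 50), 314 and 16 in T-like cells (110), 820 and 85 in macrophage-like cells (338), and 435 and 21 in monocyte-like cells (116), the last 46 with the stricter cell filter. Reversed log2 ratios were Ramp1 in the Gzmb and Itgae cluster, 0.22 at resolution 0.5, Dtx1 in gamma-delta T-like cells, 0.004 with the stricter tag call, and Ms4a4b in Folr2 macrophage-like cells, -0.27 without doublet removal. The cause was not tested. The looser tag call, and for gene sums HTODemux tags and the stricter cell filter, were chosen after seeing the data, as were most alternatives for gene lists. No paired analysis was possible because each side is 1 sample.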
